A study of Mus musculus with 12 samples.

Results

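The 10 genes described here belong to the aryl hydrocarbon receptor (AHR) pathway and to the Akr1c family of aldo-keto reductases. They are the receptor gene Ahr, its partner Arnt, its repressor Ahrr, the responsive genes Cyp1a1, Cyp1b1, Tiparp, Nqo1 and Cyp2s1, and the enzyme genes Akr1c12 and Akr1c13. They were taken by symbol from the 47729 genes counted in each library, and all 10 were found. Of these, 3 genes (Cyp1b1, Akr1c12 and Akr1c13) were selected on their measured levels in these same libraries, so their differences between groups are given as a description, with no test. The other 7 were tested within fits to all genes.

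RNA was sequenced from 6 mouse liver cancer cell lines after 48 h with 2 µM PLX4720, an inhibitor of mutant BRAF kinase, or with its solvent DMSO. Lines M1, M2 and M3 came from lymph node metastases and lines T1, T2 and T3 from primary liver tumours. Each line gave 1 library per treatment, so the 4 groups are metastasis with PLX4720, metastasis with DMSO, primary with PLX4720 and primary with DMSO, with n = 3 each. Every line carries BRAFV600E and p53 KO by its label, and the mouse models behind the study placed BRAFV600E in hepatocytes together with loss of either Trp53 or Cdkn2a. All lines grew in medium with fetal bovine serum. A replicate is a separate cell line, and whether the lines come from separate animals is not stated. T3, M2 and M3 share a number in the headers of the deposited tables. The p-values therefore measure only the spread between these lines.

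Libraries held 31992512 to 39288748 counted fragments. T3 with PLX4720 stood apart, with 3.67% of its fragments on mitochondrial genes against at most 0.712% in the others, and values without line T3 are given below where they matter. Levels in CPM are fragment counts scaled to the library total and adjusted by a TMM factor for each library. Of 8 hepatocyte marker genes, the summed level was 0.212 to 1.05 CPM in metastasis lines with PLX4720 and 0.208 to 3.14 CPM with DMSO, against 140 to 297 CPM and 164 to 267 CPM in primary lines under the same treatments. Alb, Ttr, Serpina1a and Tat had 0 fragments in every metastasis library, and most of the primary signal was Hnf4a. Of 3 simple epithelial markers, the summed level was 0.535 to 14.7 CPM across metastasis libraries and 4342 to 6691 CPM across primary libraries. Of 8 mesenchymal and stellate cell markers, the sum was 9583 to 16760 CPM with PLX4720 and 4618 to 8012 CPM with DMSO in metastasis lines, against 1636 to 3492 CPM and 2314 to 4352 CPM in primary lines. Nearly all of the primary sum was Vim (1634 to 3482 CPM with PLX4720 and 2295 to 4348 CPM with DMSO). Of the stellate cell markers, Lrat had 0 fragments in every library and Des had 0 in every metastasis library. Of 5 cholangiocyte and progenitor markers, the sum was 1207 to 2529 CPM with PLX4720 and 4558 to 9099 CPM with DMSO in metastasis lines, against 1994 to 3104 CPM and 2519 to 5240 CPM in primary lines, nearly all of it Spp1 in metastasis lines. With PLX4720, Krt19 and Krt7 of this list were called higher and Spp1 lower in metastasis lines. Both keratins stayed low there, with Krt19 at most 8.59 CPM and Krt7 at most 3.90 CPM with PLX4720. In primary lines with PLX4720, Krt19 stood at 1017 to 1346 CPM and Krt7 at 18.0 to 241 CPM. Krt19, Krt7 and Epcam were called lower in metastasis than in primary lines under both treatments. Leukocyte markers summed to under 1 CPM in every library. The metastasis lines thus lacked the hepatocyte and epithelial markers that their labelled tumour type implies. The hepatocyte, simple epithelial and mesenchymal sums move with every site comparison below, while the cholangiocyte sums overlapped between sites under both treatments. In metastasis lines the mesenchymal and cholangiocyte sums also moved with treatment, without overlap between treatments. The part of these markers in the results was not tested. In bulk libraries, fewer cells of a type and less RNA per cell cannot be told apart.

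AHR is a transcription factor that waits in the cytoplasm in a complex with the chaperone HSP90. After binding a ligand such as a dioxin or a tryptophan metabolite, it enters the nucleus, pairs with ARNT and binds DNA elements with the core GCGTG near genes for drug-metabolising enzymes. AHRR competes for ARNT and TIPARP adds ADP-ribose to the receptor, so both act as feedback inhibitors, and in the liver the pathway is best known for inducing cytochrome P450 enzymes of the CYP1 family. AKR1C enzymes reduce steroids and other carbonyl compounds.

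Promoter windows of the responsive genes are shown because GCGTG is the core that the receptor is known to bind, though a match shows letters and not binding. RefSeq sequences of GRCm38.p6 were available for 9 of the 10 genes (not Ahr), covering 250 bases before to 50 bases after the start site. GCGTG on either strand (CACGC when it lies on the minus strand) was present in 5 of these 9 windows, against 32.4% of 32851 windows of the same length. Ahrr held 3 copies, at -107, -82 and -27 from the start site, and Arnt, Cyp1a1, Cyp1b1 and Tiparp held 1 each, at -29, -54, -76 and -170. Nqo1, Cyp2s1, Akr1c12 and Akr1c13 had no match in these windows. TGACNNNGC, the core of the element used by the oxidative stress factor NRF2, occurred on either strand in the Arnt window alone, with 2 copies, against 12.4% of all windows. Neither copy overlaps the GCGTG match of Arnt. The windows of 4 genes follow, on the gene's own strand, with each match in capitals. Ahrr lies at chr13:74292282-74292581 (minus strand), Cyp1a1 at chr9:57697363-57697662 (plus strand), Cyp1b1 at chr17:79715012-79715311 (minus strand) and Tiparp at chr3:65528197-65528496 (plus strand).
Ahrr: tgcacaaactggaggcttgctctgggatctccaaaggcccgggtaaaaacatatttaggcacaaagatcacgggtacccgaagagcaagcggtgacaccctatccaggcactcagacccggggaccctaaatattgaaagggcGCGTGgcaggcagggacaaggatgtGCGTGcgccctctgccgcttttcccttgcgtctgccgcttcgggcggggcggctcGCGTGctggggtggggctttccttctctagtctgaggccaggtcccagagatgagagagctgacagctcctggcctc
Cyp1a1: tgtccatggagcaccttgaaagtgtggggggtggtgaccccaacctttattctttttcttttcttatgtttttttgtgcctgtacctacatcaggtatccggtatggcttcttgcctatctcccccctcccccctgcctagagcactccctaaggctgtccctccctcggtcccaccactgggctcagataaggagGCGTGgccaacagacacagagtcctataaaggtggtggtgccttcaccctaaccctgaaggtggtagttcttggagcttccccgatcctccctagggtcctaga
Cyp1b1: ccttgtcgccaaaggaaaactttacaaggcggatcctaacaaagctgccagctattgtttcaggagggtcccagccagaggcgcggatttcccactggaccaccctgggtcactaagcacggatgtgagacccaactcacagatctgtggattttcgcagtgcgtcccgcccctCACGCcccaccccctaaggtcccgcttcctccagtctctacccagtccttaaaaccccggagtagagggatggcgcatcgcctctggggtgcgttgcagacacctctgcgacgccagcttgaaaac
Tiparp: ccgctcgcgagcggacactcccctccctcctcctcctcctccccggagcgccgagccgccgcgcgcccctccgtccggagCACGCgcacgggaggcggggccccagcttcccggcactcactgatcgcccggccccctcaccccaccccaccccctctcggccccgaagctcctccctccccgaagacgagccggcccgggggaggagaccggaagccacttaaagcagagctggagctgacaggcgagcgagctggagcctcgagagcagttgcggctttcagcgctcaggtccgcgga

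**Figure D1:**
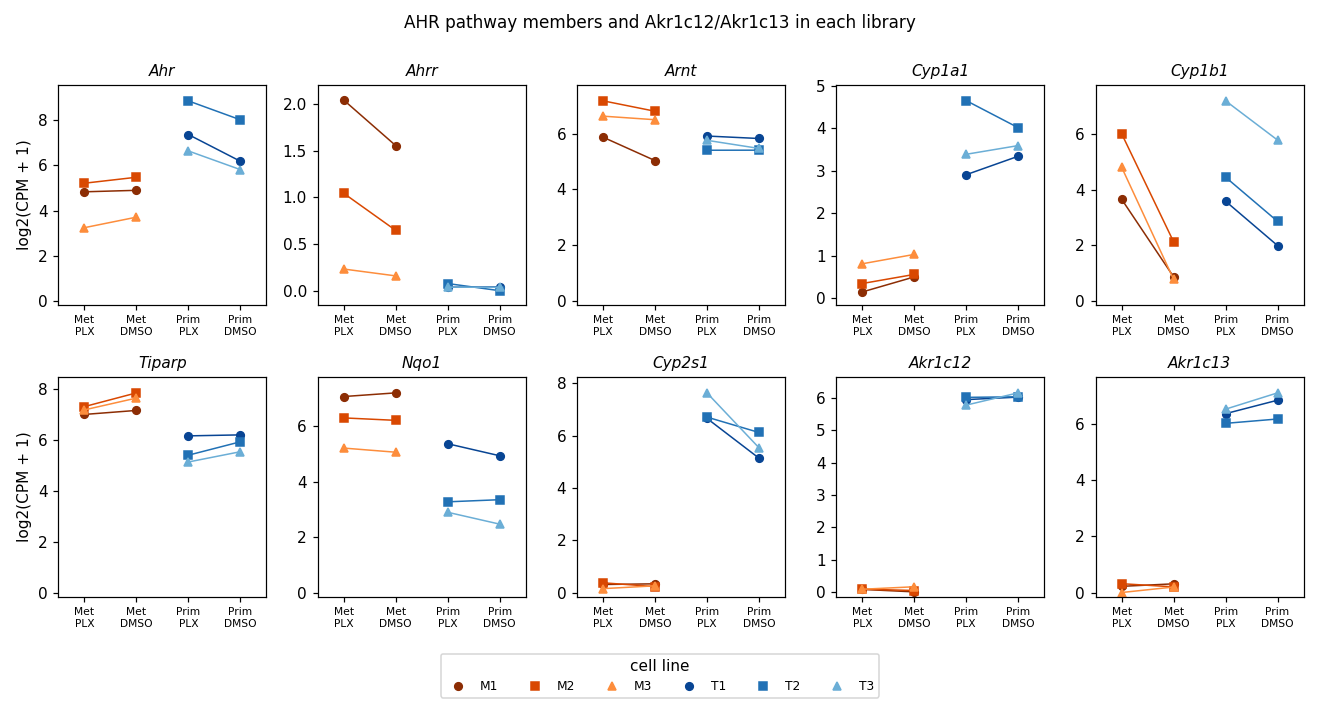
Level of each of the 10 genes in every library as log2(CPM + 1). The horizontal axis runs from metastasis lines (Met) to primary lines (Prim), each with PLX4720 (PLX) left of DMSO, and a line joins both libraries of a cell line. Cyp1b1 was higher with PLX4720 in each of the 6 lines, while Cyp2s1, Akr1c12 and Akr1c13 lay near 0 in all metastasis libraries.

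Ahr, the receptor, gave no call with PLX4720 in metastasis lines and rose 1.94-fold over DMSO in primary lines. In M1, M2 and M3 it stood at 27.5, 36.1 and 8.52 CPM with PLX4720, against 28.9, 43.5 and 12.1 CPM with DMSO. In T1, T2 and T3 it stood at 164, 460.5 and 98.7 CPM with PLX4720, against 71.8, 258 and 55.3 CPM with DMSO. By CPM all 3 metastasis lines were lower with the inhibitor and all 3 primary lines higher. Scaled by exon length as TPM (explained below), M1 was slightly higher with PLX4720 (12.8 against 12.0). The fitted log2 change in metastasis lines was -0.27 ± 0.11 (SE), with an adjusted p of 0.123 (edgeR quasi-likelihood test, Benjamini-Hochberg over 16555 genes). In primary lines it was 0.95 ± 0.11, with an edgeR adjusted p of 0.00396, and 1.03 without T3 (edgeR adjusted p = 0.0211). The change itself differed between sites by -1.23 ± 0.16 (metastasis minus primary), with an edgeR adjusted p of 0.00774, and Ahr was the only one of the 7 tested members with such a difference, where 2.94% of all genes had one. Over the interaction's alternatives the adjusted p ran from 7.32e-09 to 1, the highest without a term for the cell line.

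Ahr was lower in metastasis lines than in primary lines in every library pair, with no overlap under either treatment. With PLX4720 the fitted log2 difference was -3.30 ± 0.77 (edgeR adjusted p = 0.0363), and with DMSO it was -2.17 ± 0.73 (edgeR adjusted p = 0.116, not past the threshold of 0.05). The value with DMSO shrank to -1.14 without T2, and it was past the threshold with DESeq2 (adjusted p = 0.0155) or with a block by replicate number (edgeR adjusted p = 0.0392), within a range of 0.0155 to 0.302 over its alternatives. The call with PLX4720 was lost on leaving out T1 (edgeR adjusted p = 0.0591), T2 (0.0743), M1 (0.0934), M2 (0.0836) or M3 (0.0801), its value shrank to -2.46 without T2, and over its alternatives the adjusted p ran from 4.66e-05 to 0.0934.

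Arnt, the partner without which AHR does not bind its element, varied far less. It stood at 57.5, 144 and 97.8 CPM in M1, M2 and M3 with PLX4720, against 31.7, 111 and 89.4 CPM with DMSO. In T1, T2 and T3 it stood at 59.2, 41.3 and 53.1 CPM with PLX4720, against 55.6, 41.3 and 43.2 CPM with DMSO. Arnt was higher with the inhibitor in all 3 metastasis lines, mostly through M1, and nearly level in T2. The log2 change was 0.45 ± 0.13 in metastasis lines (edgeR adjusted p = 0.0431) and 0.13 ± 0.13 in primary lines (edgeR adjusted p = 0.586), and the difference between sites was not past the threshold (0.32 ± 0.19, edgeR adjusted p = 0.509). The metastasis call was lost without T1 (edgeR adjusted p = 0.0765), T2 (0.0736), M1 (0.174) or M2 (0.119), and over its alternatives the adjusted p ran from 0.0185 to 1. Between sites Arnt overlapped under both treatments, at 0.99 ± 0.36 with PLX4720 (edgeR adjusted p = 0.134) and 0.73 ± 0.44 with DMSO (edgeR adjusted p = 0.362). Leaving out M1 alone brought Arnt past the threshold under both (edgeR adjusted p = 0.0475 with PLX4720 and 0.0403 with DMSO).

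Set side by side as TPM, which scales levels by exon length and library total, receptor and partner had opposite orders in the 2 kinds of line. Arnt averaged 33.7 ± 14.9 TPM and Ahr 10.9 ± 6.64 TPM in metastasis lines with PLX4720 (SD, n = 3). Ahr averaged 111 ± 88.2 TPM and Arnt 18.2 ± 3.48 TPM in primary lines with PLX4720. Arnt exceeded Ahr in 5 of the 6 metastasis libraries, M1 with DMSO being the exception (10.1 TPM for Arnt and 12.0 TPM for Ahr), while Ahr exceeded Arnt in all 6 primary libraries.

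Ahrr, the repressor, was nearly silent outside the metastasis lines. It had 114, 35 and 6 fragments in M1, M2 and M3 with PLX4720, against 65, 19 and 4 with DMSO. Across primary lines it had 4 fragments in all with PLX4720 and 2 with DMSO, or 2 at most in any library. Every metastasis library lay above every primary library, and M1 held most of the fragments. Ahrr was higher with PLX4720 in all 3 metastasis lines, but the log2 change of 0.75 ± 0.30 was not past the threshold (edgeR adjusted p = 0.113). The low-count filter left Ahrr out of both site fits, so no site difference is given for it.

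Tiparp, the ADP-ribosyltransferase that marks AHR for breakdown, was lower by CPM with PLX4720 in all 6 lines and higher in metastasis than in primary lines. Its levels with PLX4720 were 129, 160 and 146 CPM in M1, M2 and M3, against 144, 232 and 201.6 CPM with DMSO. In T1, T2 and T3 they were 71.3, 41.7 and 34.5 CPM with PLX4720, against 73.3, 60.5 and 45.9 CPM with DMSO. The treatment shift was small in M1 and T1, and its direction there depended on the scaling. Per length, Tiparp was higher with PLX4720 in T1 (47.6 against 43.7 TPM) and nearly level in M1 (84.7 against 84.3 TPM). The sites did not overlap under either treatment. Over all 6 lines the log2 change with PLX4720 was -0.36 ± 0.08 (edgeR adjusted p = 0.013). In metastasis lines it was -0.39 ± 0.11 (edgeR adjusted p = 0.0432) and in primary lines -0.33 ± 0.12 (edgeR adjusted p = 0.116), with no detectable difference between sites (-0.06 ± 0.16, edgeR adjusted p = 0.937). The metastasis call was lost without T3 (edgeR adjusted p = 0.0515), M2 (0.184) or M3 (0.109), and its adjusted p ran from 0.021 to 0.92 over the alternatives.

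Between sites Tiparp was 3.00-fold higher in metastasis lines with PLX4720 (log2 1.59 ± 0.31, edgeR adjusted p = 0.0208) and 3.24-fold higher with DMSO (1.70 ± 0.26, edgeR adjusted p = 0.0106). The call with PLX4720 was lost without T2 (edgeR adjusted p = 0.0751), M2 (0.0731) or M3 (0.0592), within a range of 0.000349 to 0.0751 over the alternatives. Of its 4358 exon bases, 10.2% are shared with 4931440P22Rik on the opposite strand. No strand option was recorded for the counting, so how fragments there were assigned is uncertain.

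Cyp1a1, the CYP1 enzyme most used as a readout of AHR activity, separated the sites and gave no call with the inhibitor. It stood at 0.109, 0.273 and 0.756 CPM in M1, M2 and M3 with PLX4720, against 6.50, 24.1 and 9.46 CPM in T1, T2 and T3. With DMSO it stood at 0.417, 0.476 and 1.05 CPM in the metastasis lines, against 9.13, 15.1 and 11.1 CPM in the primary lines. Each metastasis library lay below each primary library, on 4 to 36 fragments. The log2 difference was -5.09 ± 0.94 with PLX4720 (edgeR adjusted p = 0.0171) and -4.17 ± 0.53 with DMSO (edgeR adjusted p = 0.00597). The call with PLX4720 was lost without M2 (edgeR adjusted p = 0.0766), within a range of 4.04e-09 to 0.0766, and its value ran from -6.08 without M3 to -4.39 without T2. In the PLX4720 site fit, Cyp1a1 passed the low-count filter through its primary libraries, as M1, M2 and M3 held 4, 9 and 26 fragments. That site value therefore only describes its low level in metastasis lines. With the inhibitor Cyp1a1 was lower in 5 of 6 lines and higher in T2, and the fitted change was -0.84 ± 0.40 in metastasis lines (edgeR adjusted p = 0.178) and -0.00 ± 0.24 in primary lines (edgeR adjusted p = 1). The other CYP1A gene, Cyp1a2, which marks mature hepatocytes, had 0 to 2 fragments per group.

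Cyp1b1, the CYP1 enzyme of extrahepatic and stromal tissue, was selected for its response to the inhibitor. It stood at 11.6, 63.5 and 26.9 CPM in M1, M2 and M3 with PLX4720, against 0.805, 3.33 and 0.697 CPM with DMSO, or 14.3-fold, 19.1-fold and 38.6-fold higher. In T1, T2 and T3 it stood at 11.0, 20.8 and 146 CPM with PLX4720, against 2.95, 6.24 and 54.2 CPM with DMSO, or 3.72-fold, 3.34-fold and 2.70-fold higher. The folds of the metastasis lines and those of the primary lines did not overlap. The fitted log2 change was 4.43 in metastasis lines and 1.67 in primary lines, and 1.83 in primary lines without T3.

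Line T3 set the level of Cyp1b1 in the primary group. Metastasis lines averaged 34.0 ± 26.7 CPM with PLX4720 and 1.61 ± 1.49 CPM with DMSO, and primary lines 59.3 ± 75.4 CPM with PLX4720 and 21.1 ± 28.7 CPM with DMSO (SD, n = 3). No neighbours in the order of these means differed by more than their spread. The fitted difference between metastasis and primary lines was -0.77 with PLX4720 and -3.71 with DMSO, and without T3 it turned to 1.14 with PLX4720 and shrank to -1.47 with DMSO.

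Per length, Cyp1b1 and Cyp1a1 changed places with treatment and site. With PLX4720, Cyp1b1 had 6.46, 34.5 and 13.2 TPM in M1, M2 and M3, where Cyp1a1 had 0.12, 0.29 and 0.723 TPM. With DMSO, Cyp1b1 had 0.401, 1.65 and 0.343 TPM in the same lines, where Cyp1a1 had 0.407, 0.46 and 1.01 TPM. Cyp1b1 thus led in all 3 metastasis lines with the inhibitor but in M2 alone with DMSO, and among primary libraries it led only in both T3 libraries.

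**Figure D2:**
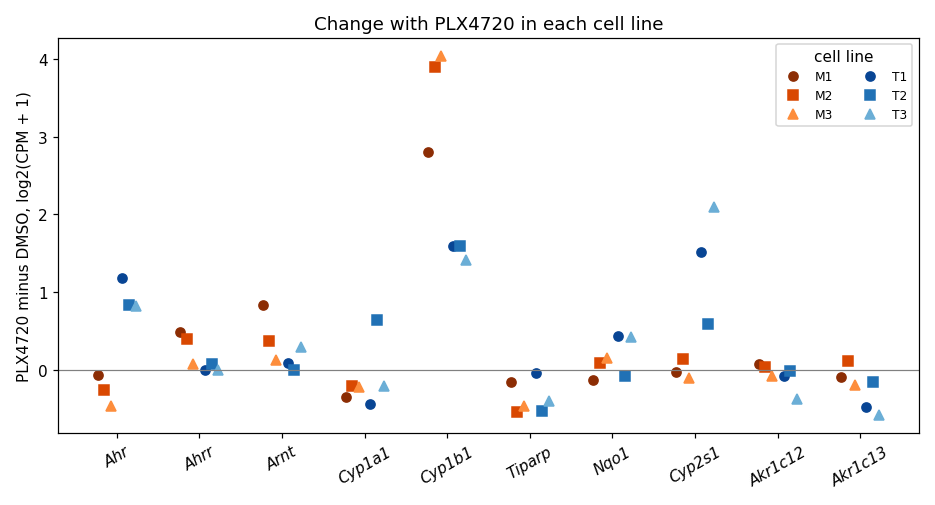
Change with PLX4720 in each cell line, as the difference of log2(CPM + 1) between its PLX4720 and DMSO libraries, with metastasis lines drawn left of primary lines for each gene. Cyp1b1 lay above 0 in all 6 lines and Tiparp below 0 in all 6, and Ahr lay below 0 in the 3 metastasis lines and above 0 in the 3 primary lines.

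Nqo1, a quinone reductase induced through both AHR and NRF2, gave no call with the inhibitor. It stood at 133, 77.6 and 36.0 CPM in M1, M2 and M3 with PLX4720, against 40.2, 8.66 and 6.44 CPM in T1, T2 and T3. With DMSO it stood at 146, 73.0 and 32.4 CPM in the metastasis lines, against 29.6, 9.18 and 4.53 CPM in the primary lines. Metastasis lines were higher throughout under DMSO, while with PLX4720 T1 lay above M3. The log2 difference was 2.17 ± 0.82 with PLX4720 (edgeR adjusted p = 0.147) and 2.56 ± 0.84 with DMSO (edgeR adjusted p = 0.107). Without T1 it was 3.44 with PLX4720 (edgeR adjusted p = 0.0318) and 3.63 with DMSO (edgeR adjusted p = 0.049), within ranges of 0.0286 to 0.321 and 0.00839 to 0.261 over the alternatives. The change with PLX4720 was 0.03 ± 0.12 in metastasis lines (edgeR adjusted p = 0.883) and 0.29 ± 0.13 in primary lines (edgeR adjusted p = 0.198).

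Cyp2s1, a dioxin-inducible P450 of epithelia, was almost absent from metastasis lines and rose with PLX4720 in primary lines. The 3 metastasis lines together held 23 fragments with PLX4720 and 22 with DMSO. In T1, T2 and T3 it stood at 100, 104 and 198 CPM with PLX4720, against 34.4, 68.8 and 45.7 CPM with DMSO. All primary lines rose and the primary groups did not overlap, with T3 the highest under the inhibitor. The log2 change in primary lines was 1.42 ± 0.24 (edgeR adjusted p = 0.0156). It was lost without T1 (1.37, edgeR adjusted p = 0.119) or T3 (1.09, edgeR adjusted p = 0.0581), and over its alternatives the adjusted p ran from 4.62e-06 to 1. The difference between sites in this response was not past the threshold (-1.40 ± 0.78, edgeR adjusted p = 0.485). Between sites, mean CPM was 605-fold lower in metastasis lines with PLX4720 (log2 -9.19 ± 0.54, edgeR adjusted p = 0.00052) and 229-fold lower with DMSO (log2 -7.80 ± 0.44, edgeR adjusted p = 0.00092), and both calls held without T3. Cyp2s1 passed the low-count filter through its primary libraries alone, so these site values only describe its near absence from metastasis lines. Of its exon bases, 5.27% are shared with Gm26707 on the opposite strand.

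Counted together, 2 of the 7 tested members were called with PLX4720 in metastasis lines (Arnt higher, Tiparp lower), where 20.4% of all genes were called. In primary lines 2 of 7 were called (Ahr and Cyp2s1, both higher), where 8.23% of all genes were. Over all 6 lines, by the mean of both site terms, 3 of 7 were called (Ahr and Arnt higher, Tiparp lower), where 27.2% were. Ahr was lower by CPM in the 3 metastasis lines, so its higher mean came from the primary lines. Of the 3 calls, Ahr was lost without T1 (0.27, edgeR adjusted p = 0.0591), and Arnt, at an adjusted p of 0.0496 by edgeR, was lost without T1, T2, T3, M1 or M2 (0.0785 to 0.122). Without a term for the cell line, 0 of 7 were called in any of these 3 comparisons by edgeR. Between sites, 4 of the 6 members that passed the filter were called with PLX4720 (Ahr, Cyp1a1 and Cyp2s1 lower, Tiparp higher), where 13.5% of all genes were. With DMSO 3 of 6 were called (Cyp1a1 and Cyp2s1 lower, Tiparp higher), where 12.1% were. Cyp2s1, counted in both site tallies, passed the filter through its primary libraries alone. Cyp1a1, counted in both too, would not have passed with PLX4720 on its metastasis libraries. The shares among so few genes describe these members only.

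Akr1c12 and Akr1c13 are similar copies in the same region of chromosome 13, and they were selected because they marked the primary lines. Akr1c12 (minus strand, 4268172 to 4279433) had 1265 exon bases and Akr1c13 (plus strand, 4191184 to 4205596) had 1400. Their longest coding transcripts were identical at 94.6% of 1260 aligned bases, against 74.1% for Akr1c12 and Akr1c19. The counting could have divided fragments between the copies, so their separate values are uncertain. Their promoter windows are shown because they are as alike as the transcripts, with 284 of 296 aligned bases identical. In the RefSeq sequences below (GRCm38.p6), capitals mark the 12 bases that differ and the 1 base without a partner, and the windows lie at chr13:4279350-4279649 (minus strand) for Akr1c12 and chr13:4190937-4191236 (plus strand) for Akr1c13.
Akr1c12: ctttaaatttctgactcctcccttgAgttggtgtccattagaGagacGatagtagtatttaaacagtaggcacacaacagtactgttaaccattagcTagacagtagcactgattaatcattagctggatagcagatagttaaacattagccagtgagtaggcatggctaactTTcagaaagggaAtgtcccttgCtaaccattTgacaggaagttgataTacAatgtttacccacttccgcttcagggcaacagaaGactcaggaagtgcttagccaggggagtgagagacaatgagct
Akr1c13: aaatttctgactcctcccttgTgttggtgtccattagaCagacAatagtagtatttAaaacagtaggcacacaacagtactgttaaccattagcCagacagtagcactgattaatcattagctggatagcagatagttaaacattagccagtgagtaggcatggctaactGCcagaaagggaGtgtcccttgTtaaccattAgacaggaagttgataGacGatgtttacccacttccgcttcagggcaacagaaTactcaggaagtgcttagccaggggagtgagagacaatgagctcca

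Both genes were at a few fragments at most in metastasis libraries and present in every primary library. In metastasis lines Akr1c12 had 6 fragments in all with PLX4720 and 5 with DMSO, and Akr1c13 had 14 with PLX4720 and 18 with DMSO. Akr1c12 stood at 61.0, 64.0 and 54.1 CPM in T1, T2 and T3 with PLX4720, against 64.4, 64.8 and 70.7 CPM with DMSO. Akr1c13 stood at 81.1, 63.6 and 90.7 CPM with PLX4720, against 113, 71.0 and 136 CPM with DMSO. By CPM both were lower with the inhibitor in all 3 primary lines, with Akr1c12 nearly level in T1 and T2. Per length, Akr1c12 was higher with PLX4720 in T1 (140 against 132 TPM) and T2 (143 against 135 TPM). Its direction in T1 and T2 thus depended on the scaling, while T3 was lower on both scales (118.5 against 156 TPM). By mean CPM, Akr1c12 was 1032-fold lower in metastasis lines with PLX4720 and 1370-fold lower with DMSO, and Akr1c13 was 579-fold and 602-fold lower. Fitted changes with PLX4720 in primary lines were -0.16 for Akr1c12 and -0.41 for Akr1c13, and -0.03 and -0.30 without T3.

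The balance of the 2 copies differed slightly with treatment. Akr1c12 gave 42.9%, 50.1% and 37.4% of the fragments of both genes in T1, T2 and T3 with PLX4720, against 36.2%, 47.7% and 34.2% with DMSO. Its share was higher with the inhibitor in each of the 3 lines, by less than the spread between lines. Per length, Akr1c13 averaged 159 ± 27.0 TPM and Akr1c12 134 ± 13.3 TPM in primary lines with PLX4720, and 205 ± 69.4 and 141 ± 13.2 TPM with DMSO.

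**Figure D3:**
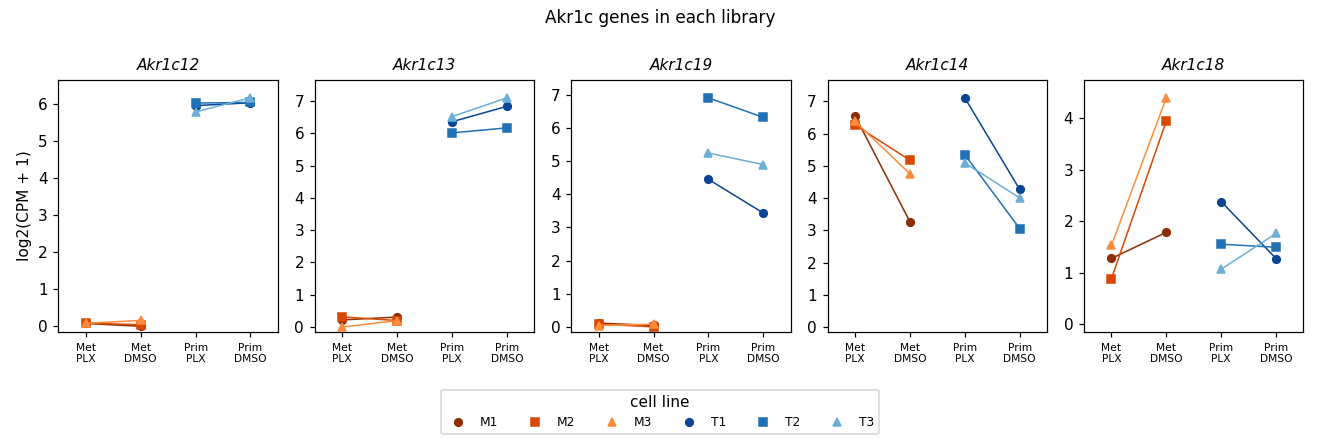
Level of 5 Akr1c genes in every library as log2(CPM + 1), with metastasis lines (Met) left of primary lines (Prim) and PLX4720 (PLX) left of DMSO. Akr1c12, Akr1c13 and Akr1c19 were near 0 in all metastasis libraries, Akr1c14 was higher with PLX4720 in all 6 lines, and Akr1c18 was lower with PLX4720 in all 3 metastasis lines.

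Other aldo-keto reductases did not follow one pattern. Of 15 listed, 10 passed the filter in the treatment fits. With PLX4720, 4 of these 10 were called in metastasis lines (2 higher, 2 lower), where 20.4% of all genes were, with a median log2 change of 0.11 against 0.02 for all genes. In primary lines 2 of 10 were called (both higher), where 8.23% of all genes were, with a median of 0.19 against 0.03. Akr1c14, a 3-alpha-hydroxysteroid dehydrogenase, rose at both sites. It stood at 92.7, 76.1 and 82.4 CPM in M1, M2 and M3 with PLX4720, against 8.62, 35.2 and 26.0 CPM with DMSO, and at 137, 39.8 and 33.2 CPM in T1, T2 and T3, against 18.3, 7.31 and 15.1 CPM. Its log2 change was 2.02 ± 0.44 in metastasis lines (edgeR adjusted p = 0.0135, 1.39 without M1) and 2.17 ± 0.45 in primary lines (edgeR adjusted p = 0.0256, lost without T1 at 0.179 or T2 at 0.116).

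Akr1c18, a 20-alpha-hydroxysteroid dehydrogenase that inactivates progesterone, fell in metastasis lines. It stood at 1.42, 0.849 and 1.89 CPM in M1, M2 and M3 with PLX4720, against 2.45, 14.5 and 20.1 CPM with DMSO. The log2 change was -2.82 ± 0.65 (edgeR adjusted p = 0.0163), lost without M2 (0.0982) or M3 (0.0818). Akr1b10 rose by 0.68 ± 0.12 (edgeR adjusted p = 0.00456) and Akr1b8 changed by -0.71 ± 0.14 (edgeR adjusted p = 0.00856) in metastasis lines. Akr1c19, another gene of the chromosome 13 cluster, shared the site pattern of the 2 selected copies. It had 6 fragments across metastasis lines with PLX4720 and 3 with DMSO, against 6557 and 4497 across primary lines, with an edgeR adjusted p of 0.00268 with PLX4720 and 0.00517 with DMSO. Akr1c19 passed the low-count filter through its primary libraries alone, so these tests are no separate support for that pattern. Its rise with PLX4720 in primary lines (0.67 ± 0.17, edgeR adjusted p = 0.0451) was lost without T1, T2 or T3. Of the 9 listed genes that passed the filter in the site fits, 1 was called with PLX4720 (Akr1c19), where 13.5% of all genes were. With DMSO 2 were called (Akr1c19 and Akr1b8), where 12.1% of all genes were. Akr1b8 was higher in metastasis lines with DMSO (0.90 ± 0.20, edgeR adjusted p = 0.0351), a call lost on leaving out any line.

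Further genes known to respond to AHR moved in both directions. Of 16 listed, 13 passed the filter in the treatment fits. In metastasis lines 1 was called higher and 2 lower with PLX4720, near the 20.4% of all genes called there, with a median of -0.02 against 0.02 for all genes. In primary lines 4 were higher and 1 lower, where 8.23% of all genes were called, with a median of 0.62 against 0.03. The change itself differed between sites for 2 of the 13, Xdh and Aldh3a1, where it did for 2.94% of all genes. Xdh, the gene of xanthine oxidoreductase, stood at 279, 168.5 and 76.9 CPM in M1, M2 and M3 with PLX4720, against 236, 125 and 64.1 CPM with DMSO. In T1, T2 and T3 it stood at 17.2, 0.517 and 8.92 CPM with PLX4720, against 5.87, 0.263 and 3.15 CPM with DMSO. It was higher with the inhibitor in all 6 lines, and its log2 change was 0.31 ± 0.09 in metastasis lines (edgeR adjusted p = 0.0351, lost on leaving out any line) and 1.48 ± 0.12 in primary lines (edgeR adjusted p = 0.000966). Aldh3a1, an aldehyde dehydrogenase of the classical AHR battery, stood at 16.1, 10.2 and 5.81 CPM in M1, M2 and M3 with PLX4720, against 21.1, 12.1 and 4.44 CPM with DMSO, and at 126, 2.56 and 170.0 CPM in T1, T2 and T3, against 59.9, 1.21 and 46.2 CPM. Its log2 change was -0.11 ± 0.19 in metastasis lines (edgeR adjusted p = 0.727) and 1.39 ± 0.20 in primary lines (edgeR adjusted p = 0.0083). Both genes had a smaller response in metastasis than in primary lines, with differences of -1.17 ± 0.14 for Xdh (edgeR adjusted p = 0.00729) and -1.51 ± 0.28 for Aldh3a1 (edgeR adjusted p = 0.026, lost without T1, T2, T3 or M2 at 0.053 to 0.0839).

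The glucuronosyltransferase gene Ugt1a6b was also called in primary lines (1.99 ± 0.44, edgeR adjusted p = 0.0315), a call lost without T1, T2 or T3. Its value moved to 3.42 without T1 and 1.28 without T3, and T2 held 0.0272 CPM with PLX4720 and 0.0263 CPM with DMSO. Ugt1a6a, named although it stood outside the naming rule, completed the 4 (1.54 ± 0.40, edgeR adjusted p = 0.0489), and these transcripts share exons, so their fragments are uncertain. Serpinb2, a protease inhibitor, fell at both sites, with a log2 change of -2.65 ± 0.50 in metastasis lines (edgeR adjusted p = 0.00699, -3.50 without M1, lost without M3 at -1.99 and 0.0773) and -2.67 ± 0.46 in primary lines (edgeR adjusted p = 0.0156, lost without T1 at 0.105 or T3 at 0.142). These changes rest on few fragments. Serpinb2 stood at 0.301, 0 and 0.291 CPM in M1, M2 and M3 with PLX4720, against 0.805, 0.297 and 2.96 CPM with DMSO. In T1, T2 and T3 it stood at 0.0783, 0.109 and 1.12 CPM with PLX4720, against 0.779, 0.316 and 7.70 CPM with DMSO. Ereg, the EGF receptor ligand epiregulin, fell by 1.57 (log2) in metastasis lines (edgeR adjusted p = 0.0101, lost without M2 at 0.0594). In primary lines its change of -1.43 ± 0.42 was not past the threshold (edgeR adjusted p = 0.0676).

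**Figure D4:**
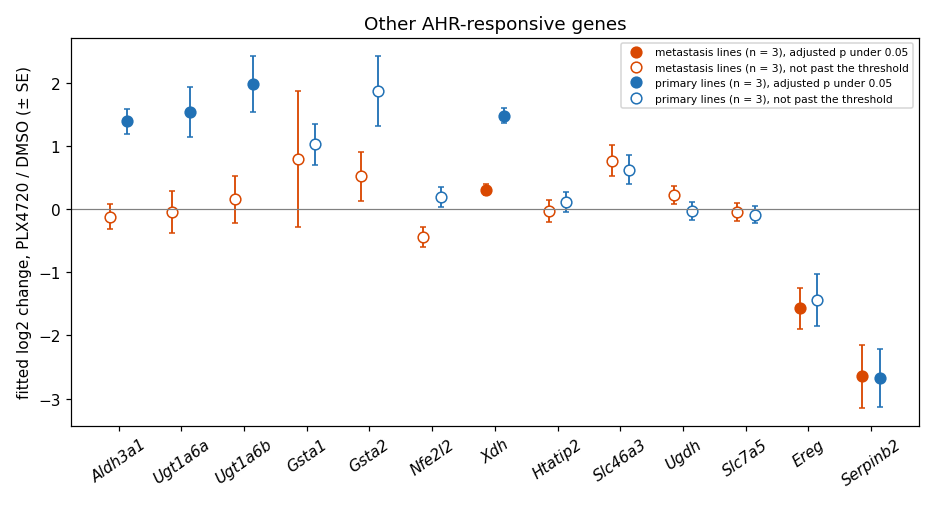
Fitted log2 change with PLX4720 over DMSO of the 13 further AHR-responsive genes that passed the filter, with bars of 1 SE, for metastasis lines (orange, left) and primary lines (blue, right). Filled points had an edgeR adjusted p under 0.05, and the primary values of Xdh and Aldh3a1 lay well above their metastasis values.

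Between sites the same list gave 2 calls of 11 tested genes with PLX4720 and 3 of 12 with DMSO. Of all genes, 13.5% and 12.1% were called in these comparisons. Ugdh, which makes UDP-glucuronic acid for conjugation, was 3.28-fold lower in metastasis lines with PLX4720 (edgeR adjusted p = 0.0116, lost without M2 at 0.0562) and 3.91-fold lower with DMSO (edgeR adjusted p = 0.00706). Gsta1, a glutathione transferase with the near-identical copy Gsta2, was called lower in metastasis lines under both treatments, on 13 fragments with PLX4720 and 7 with DMSO against 3073 and 1397 in primary lines. Without M2 neither call held, and without M3 that with DMSO was lost. Gsta1 passed the filter through its primary libraries alone. Xdh ran the other way, with every metastasis library above every primary library. Its site difference was 4.31 ± 1.16 with PLX4720 (edgeR adjusted p = 0.0581) and 5.54 ± 1.13 with DMSO (edgeR adjusted p = 0.0247, lost without T3, M1 or M2).

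Of 11 genes for the receptor's partners and chaperones, all tested, 3 were called with PLX4720 in metastasis lines (2 higher, 1 lower), where 20.4% of all genes were. Over all 6 lines 5 were called (3 higher, 2 lower), where 27.2% of all genes were. In primary lines 0 of the 11 were called, where 8.23% of all genes were, while 3 had an unadjusted p under 0.05 by edgeR and DESeq2 called 0. Ncoa1, a coactivator, rose in metastasis lines (0.82 ± 0.17, edgeR adjusted p = 0.0119), at 10.1, 13.7 and 6.22 CPM in M1, M2 and M3 with PLX4720 against 4.09, 9.07 and 4.21 CPM with DMSO. Arnt2, an ARNT paralogue (1.54 ± 0.46, edgeR adjusted p = 0.0456), and Hsp90aa1 (-0.30 ± 0.09, edgeR adjusted p = 0.0461) each lost the call without T1, T2, T3, M1 or M2. Without M1 the change of Arnt2 shrank to 0.41 (edgeR adjusted p = 0.463), and without the others it was 1.44 to 2.02. Crebbp rose by 0.34 over all 6 lines (edgeR adjusted p = 0.0348), a call lost without T1, T2, T3, M1 or M2. Between sites, the corepressor gene Nrip1 was lower in metastasis lines with PLX4720 (-1.34 ± 0.31, edgeR adjusted p = 0.0361) and with DMSO (-1.08 ± 0.20, edgeR adjusted p = 0.0194). Arnt2 was lower with DMSO (-3.56 ± 0.73, edgeR adjusted p = 0.0258). Each of these 3 site calls was lost without T1 or M2, among other lines.

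Hif1a, the hypoxia factor that also pairs with ARNT, was the one gene called among 3 tested of 7 listed ARNT-pairing factors. Hif1a was called in primary lines, over all 6 lines and between sites with PLX4720, where 8.23%, 27.2% and 13.5% of all genes were. Over all 6 lines Hif1a changed by -0.22 (edgeR adjusted p = 0.0432), a call lost without T1, T2, T3, M1 or M2 and with RLE scaling. Its log2 change with PLX4720 was 0.08 ± 0.10 in metastasis lines (edgeR adjusted p = 0.597). In primary lines it fell by 0.51 (edgeR adjusted p = 0.0187, lost without T1, T2 or T3), at 127, 174 and 140.5 CPM in T1, T2 and T3 with PLX4720 against 184, 222 and 223 CPM with DMSO. Between sites it was higher in metastasis lines with PLX4720 (1.04 ± 0.25, edgeR adjusted p = 0.0411, lost without T1, T2, T3, M2 or M3). Of 4 genes that pass electrons to P450 enzymes, Cyb5a alone was called. It rose by 0.64 ± 0.08 in metastasis lines (edgeR adjusted p = 0.000853), where 20.4% of all genes were called. In primary lines it rose by 0.49 ± 0.08 (edgeR adjusted p = 0.0127, lost without T1 at 0.111 or T2 at 0.0708), where 8.23% of all genes were called. It was lower in metastasis than in primary lines with DMSO (-1.34 ± 0.29, edgeR adjusted p = 0.0293, lost without T1, T3, M2 or M3), where 12.1% were. Of 11 enzymes from tryptophan to kynurenine, a source of AHR ligands, 4 passed the filter. With PLX4720 edgeR called 0 of these 4 at either site, where 20.4% (metastasis) and 8.23% (primary) of all genes were called. At each site 1 of the 4 had an unadjusted p under 0.05 and DESeq2 called 0, and Kynu and Haao had 0 fragments in every library.

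NRF2 targets, listed because Nqo1 belongs to both pathways, moved in both directions. Of 11, PLX4720 gave 3 calls higher and 3 lower in metastasis lines, where 20.4% of all genes were called, with a median of -0.11 against 0.02 for all genes. In primary lines 4 were higher, where 8.23% of all genes were called, with a median of 0.27 against 0.03. Me1 rose by 0.60 ± 0.10 in metastasis lines (edgeR adjusted p = 0.00346) and 0.47 ± 0.10 in primary lines (edgeR adjusted p = 0.0256, lost without T1, T2 or T3). Gstm1, a glutathione transferase, rose by 1.03 ± 0.17 in metastasis lines (edgeR adjusted p = 0.00379) and 0.71 ± 0.17 in primary lines (edgeR adjusted p = 0.0419, lost without T1, T3 or M2). Gsta4 rose by 0.61 in primary lines (edgeR adjusted p = 0.0366, lost without T1, T2, T3 or M2). Gclc, the catalytic subunit of glutathione synthesis, fell by 0.39 in metastasis lines (edgeR adjusted p = 0.0214, lost without M2 at 0.109) and rose by 0.46 ± 0.09 in primary lines (edgeR adjusted p = 0.0246, lost without T1, T2 or T3 at 0.0991 to 0.134). Srxn1 fell by 0.76 in metastasis lines (edgeR adjusted p = 0.0026) and changed by 0.19 ± 0.12 in primary lines (edgeR adjusted p = 0.337). Between sites 2 of the 11 were called with PLX4720 (both lower) and 3 with DMSO (1 higher, 2 lower), where 13.5% and 12.1% of all genes were. Srxn1 was higher in metastasis lines with DMSO (1.92 ± 0.30, edgeR adjusted p = 0.0109, kept on leaving out any line), and with PLX4720 its difference was 1.04 ± 0.33 (edgeR adjusted p = 0.0923). Osgin1, a stress-induced growth inhibitor gene, was lower with PLX4720 (-4.12 ± 0.87, edgeR adjusted p = 0.0261, lost without M1, M2 or M3) and with DMSO (-3.28 ± 0.64, edgeR adjusted p = 0.0217, lost without T2, T3 or M3). Me1 was lower in metastasis lines with PLX4720 (-2.22 ± 0.17, edgeR adjusted p = 0.00125) and with DMSO (-2.37 ± 0.23, edgeR adjusted p = 0.00262). The gene of NRF2 itself, Nfe2l2, changed by -0.44 ± 0.16 (edgeR adjusted p = 0.0933) and 0.19 ± 0.16 (edgeR adjusted p = 0.498) in metastasis and primary lines.

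The genes with the most similar profiles were found by the root mean square difference of log2(CPM + 1), centred on each gene's mean over the 12 libraries, among 11856 genes of at least 1 CPM on average. For Cyp1b1, whose own values spread by 1.97 around their mean on this scale, the nearest were Sema3f (0.87), Aldh1a7 (0.952), Edn1 (0.998) and Nuak2 (1.04). Edn1, the endothelin 1 gene, stood at 4.98 to 24.9 CPM with PLX4720 and 0.358 to 1.13 CPM with DMSO in metastasis lines. Akr1c12, with a spread of 2.96, had close neighbours in Dnajc22 (0.247), Gimd1 (0.258), Hs3st1 (0.268) and Gipc2 (0.268). All 4 were under 1 CPM in every metastasis library and above 45 CPM in every primary library. Nqo1, with a spread of 1.55, was nearest to Slc2a3 (0.495), Hmgn3 (0.561), Eif4e3 (0.593) and Prtg (0.613).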

How the data were processed

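Libraries were stranded and made from total RNA depleted of ribosomal RNA, per the labels' protocols. Per the file headers, the authors deposited raw counts of fragments per gene, made with featureCounts 1.5.2 on exons of Ensembl 84 (GRCm38), with no strand option recorded. The aligner was not given in the sources used here. Symbols from GENCODE M21 matched 47224 of 47729 gene identifiers. Totals of 31992512 to 39288748 fragments per library set the counting precision.

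Counts were fitted in R 4.3.3 with edgeR 4.0.16 (filterByExpr, TMM, quasi-likelihood test, Benjamini-Hochberg, threshold 0.05). The treatment fit used all 12 libraries, blocked by cell line, with 1 treatment term for each site. The site fits used the 6 libraries of each treatment without a block. Each kind of fit left 4 residual degrees of freedom. The SE is the absolute log2 change divided by the square root of F, and is approximate for genes with few fragments. CPM values were computed after TMM scaling, and TPM from exon bases per gene. Both libraries of a line deviated together from their group means (r = 0.839 to 0.923), and the labels name the line, so the block was kept. Equal replicate numbers at both sites did not pair lines (r = -0.0982 to 0.012). No pair of libraries agreed within counting noise.

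Alternatives were DESeq2 1.42.0, RLE scaling, no filter, no block or a block by number, each site fitted alone, each line left out, both Akr1c copies summed, and CPM without TMM. The fits were tested on simulated data. The genes and lists were chosen with earlier results of these data known. From each list, up to 4 genes with the smallest adjusted p past the threshold are named in each comparison described, with Cyp1a2, Aldh3a1, Nfe2l2, Hif1a and Akr1c18 always, and the 4 nearest profiles of Cyp1b1, Akr1c12 and Nqo1. A further gene of the rule is not reported here.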

Additional observations from a re-analysis of the deposited data

Results flagged for a closer look

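For 5 genes the response to PLX4720 differed between metastasis and primary lines by a direct test of that difference (edgeR quasi-likelihood interaction contrast, metastasis minus primary, log2, adjusted over all genes). Of all genes, 2.94% had such a difference. For Ahr the difference was -1.23 (edgeR adjusted p = 0.00774), with 3 of 3 metastasis lines lower and 3 of 3 primary lines higher with PLX4720 by CPM. For Xdh it was -1.17 (edgeR adjusted p = 0.00729), with all 6 lines higher but the primary lines by more. For Aldh3a1 it was -1.51 (edgeR adjusted p = 0.026), with 1 of 3 metastasis lines and 3 of 3 primary lines higher. For Gclc, a gene of glutathione synthesis, it was -0.85 (edgeR adjusted p = 0.0155), and for Srxn1, which repairs oxidised peroxiredoxins, -0.95 (edgeR adjusted p = 0.0226). Gclc was higher in 0 of 3 metastasis and 3 of 3 primary lines, and Srxn1 in 0 of 3 metastasis and 2 of 3 primary lines. Without T2 the call of Gclc was lost (edgeR adjusted p = 0.0685), and without T1, T2, M2 or M3 that of Srxn1. That of Aldh3a1 was lost without T1, T2, T3 or M2.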

How the results depend on the processing

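Of the recomputed changes of the 10 genes, 572 stayed on the same side of the threshold or within the spread between lines, 35 lost a call, 12 gained one and 29 moved by more than the spread. No call changed direction. Without the replicate block for the cell line, edgeR called 18 genes over all 6 lines, 15 in metastasis lines, 1 in primary lines and 0 for the site difference in the response, against 4496, 3378, 1362 and 487 with the block, and 0 of the 7 tested members in each. Every PLX4720 call of a gene named from the lists that was recomputed this way was lost as well. With the replicate block by number, which pairs no lines by design, the DMSO site fit called 1106 genes, against 1819 without it, and 5 members. Fitted on its own libraries, each site gave 2195 calls in metastasis lines, with 0 members, and 2491 in primary lines. With no filter, calls were 2052 in primary lines and 996 for the difference. DESeq2 called 3163 genes between sites with PLX4720, 2974 with DMSO, with 5 members, and 920 for the difference. Leaving out 1 line at a time gave 2417 to 4384 calls over all 6 lines, 1891 to 3090 in metastasis lines, 91 to 2252 in primary lines, 122 to 798 for the difference, 1097 to 1712 between sites with PLX4720 and 901 to 1595 with DMSO. Calls among the 7 members then ran from 1 to 3, 0 to 1, 1 to 2, 1 to 1, 1 to 4 and 3 to 4 in the same order. The lowest primary count came without T1. The causes were not tested. Akr1c12, Akr1c13 and Cyp2s1 in metastasis lines, and Ahrr in primary lines, rest on few fragments, so their changes with PLX4720 there are imprecise.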
